A study of Mus musculus with 12 samples.

Results

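The p53 target genes described here are 33 genes whose transcription the tumour suppressor p53 is known to raise. They were chosen by name, as listed symbols matched to the gene symbols of a count table of mouse tongue organoids. The rule uses no measured value, but the list was drawn up with earlier results of these data known. All 33 were among the 55367 genes of the table, and all 33 were expressed enough to be among the 17076 genes tested. By function they fell into 9 genes of cell cycle arrest and p53 feedback, 12 genes of cell death, 4 genes of DNA repair and 8 genes of metabolism and other functions.

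Organoids are small tissues cultured from stem cells, here from taste papillae at the back of the mouse tongue, the circumvallate (CVP) and the foliate (FoP). Each of the 2 lines gave a wild type culture and 2 clones labelled as knock-outs of Foxe1, a forkhead transcription factor. The CVP clones are numbered 2.9 and 2.10 and the FoP clones 2.4 and 2.5. Every culture gave duplicate libraries, so each line had 2 wild type and 4 knock-out libraries, and poly(A) RNA was sequenced with stranded TruSeq kits. Each line has 1 wild type culture, which is not labelled a clone, so the effect of the genotype and of deriving a clone cannot be told apart. The labels give no age, sex or treatment by group. Nothing says that duplicates came from separate cultures, so the p-values measure only the spread between these libraries, which may be technical.

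p53 is held low in unstressed cells by Mdm2, a ubiquitin ligase that marks it for breakdown and is itself a p53 target, which closes a feedback loop. When DNA damage or other stress frees p53, it binds paired copies of a 10-base half-site and raises genes that stop the cell cycle, repair DNA, adjust metabolism or start cell death. In stratified epithelia the same sites are also bound by p63, a relative of p53 expressed in basal cells.

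Totals ran from 59.3 to 73.6 M counts per library, with 21421 to 22602 genes detected. The Foxe1 transcript was at 15.4 and 15.9 counts per M counts (CPM) in CVP wild type, 23.7 and 22.7 in clone 2.9 and 7.33 and 8.46 in clone 2.10. In FoP it was at 16.3 and 16.0 in wild type, 22.4 and 20.0 in clone 2.4 and 11.2 and 11.5 in clone 2.5. It thus lay above wild type in a clone of each line and below it in the other, so transcript level does not separate the labels, and "knock-out" below means the libraries labelled so. All 6 epithelial markers were detected in every library, among them Epcam and Krt5. The endothelial marker Cdh5 and the fibroblast marker Lum were at or near 0, as was the leukocyte marker Ptprc. Other fibroblast and endothelial markers were detected. The 6 fibroblast markers summed to 3.88 to 9.16 CPM per library and the 4 endothelial markers to 0.886 to 3.11. Sums of 4 glia and nerve markers were 1.54 to 6.14 CPM and of 4 taste cell markers 14.3 to 21.8. The summed level of the 7 immune markers was 17.3 to 43.2 CPM in wild type and 1.43 to 5.04 in knock-out libraries, from Lyz2 and Cd68, and its part in the results below was not tested.

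Most p53 targets were lower in the knock-out libraries of both lines. In the CVP line 22 of 33 fell and 3 rose, where 22.9% of all tested genes fell and 23.5% rose. In the FoP line 20 fell and 1 rose, against 15.3% and 13.5% of all tested genes. The median log2 fold change over the 33 genes was -0.34 in CVP and -0.38 in FoP, beside 0.03 and 0.01 over all tested genes. A gene is said to rise or fall where its Benjamini-Hochberg adjusted p over all tested genes was under 0.05 in the quasi-likelihood test of edgeR. Fold changes are log2 values of knock-out over wild type, from 2 wild type and 4 knock-out libraries per line. Their standard error (SE) comes from a single fit in which the spread is estimated over all 12 libraries. In such bulk samples fewer cells of a type and less RNA per cell cannot be told apart.

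The lines have separate wild type and knock-out libraries. The 18 targets that fell in both made up 81.8% of the 22 that fell in CVP and 90% of the 20 that fell in FoP. Of all 17076 tested genes 3917 fell in CVP, 2620 in FoP and 1727 (10.1%) in both. Averaged over the lines, 24 targets fell and 2 rose (24.6% and 25.0% of all tested genes). The levels of 23 targets were lower in every CVP knock-out library than in both wild type libraries (30.0% of all tested genes), and 3 were higher in every one (31.7%). In FoP these counts were 23 (25.8%) and 1 (23.9%). With the duplicates of each culture summed into 1 sample, which leaves 2 residual degrees of freedom, 18 targets were still called in CVP and 9 in FoP. The share of all tested genes called in that fit is not given here, so these counts are not set against it. The calls lost were Gadd45a, Tnfrsf10b, Pidd1, Xpc, Polk, Ak1 and Dglucy in CVP, and in FoP all but Cdkn1a, Mdm2, Ccng1, Btg2, Plk2, Zmat3, Eda2r, Trp53inp1 and Dglucy.

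**Figure D1:**
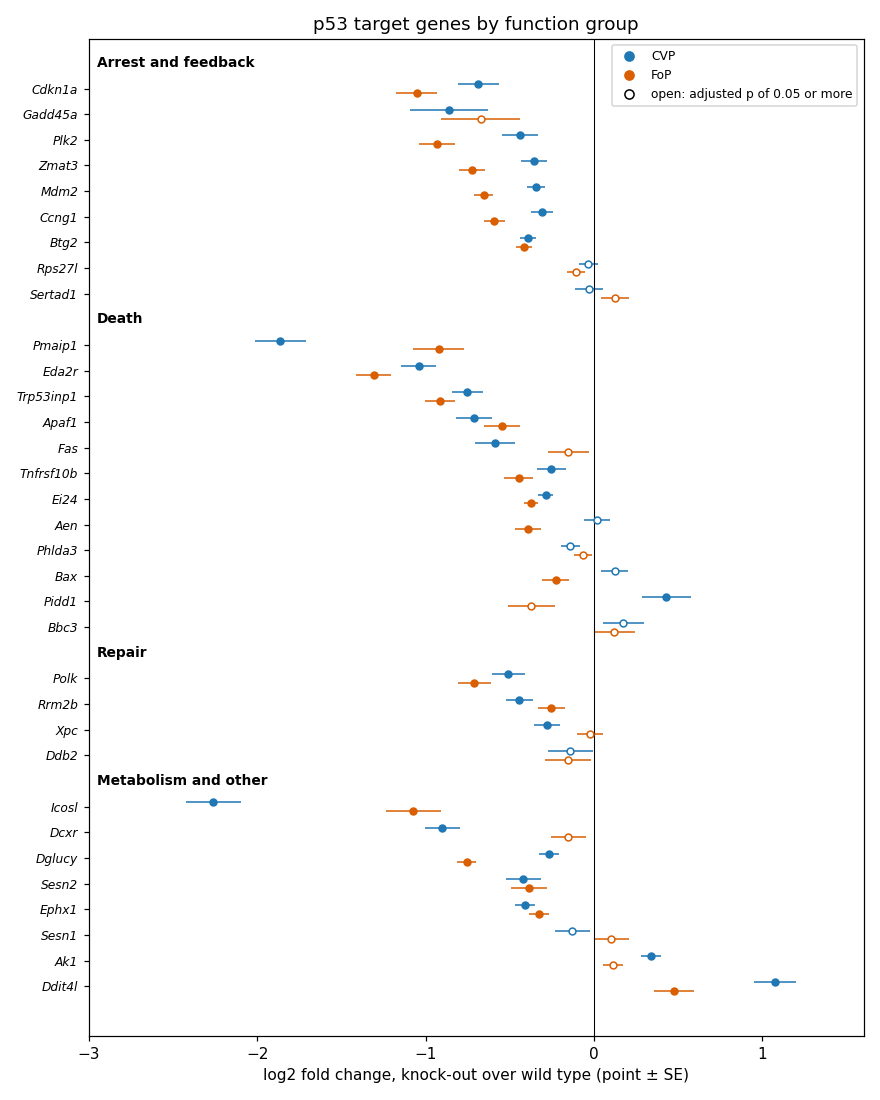
Log2 fold change of each p53 target, knock-out over wild type, in the CVP line (blue) and the FoP line (orange), with bars of 1 SE. Filled points passed an adjusted p of 0.05. Most points lie left of 0, from -2.26 for Icosl in CVP to 1.07 for Ddit4l in CVP, and Ddit4l is the gene filled to the right of 0 in both lines.

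Among the arrest and feedback genes 7 of 9 fell in CVP and 6 of 9 in FoP, and none rose, also at an unadjusted p under 0.05 in edgeR. Of all tested genes 22.9% fell in CVP and 15.3% in FoP. Cdkn1a encodes p21, the cyclin-dependent kinase inhibitor through which p53 halts the cell cycle. Its level in CVP was 437 and 354 CPM in wild type, 271 and 263 in clone 2.9 and 242 and 208 in clone 2.10. In FoP it was 585 and 577 CPM in wild type, 252 and 313 in clone 2.4 and 251 and 305 in clone 2.5. Every knock-out library lay below both wild type libraries of its line. The log2 fold change was -0.69 ± 0.12 in CVP (edgeR adjusted p = 0.000811) and -1.05 ± 0.12 in FoP (edgeR adjusted p = 0.000114), which leaves 62.1% and 48.2% of the wild type level.

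Promoter sequences show where the p53 half-site stands in these genes. The half-site searched was 3 purines, C, A or T, A or T, G and 3 pyrimidines, which reads the same way on either strand. The windows were RefSeq promoters of the mouse build GRCm38.p6, from 250 bases before to 50 after a transcript start, which covered 26 of the 33 targets. A half-site lay in a window of 11 of the 26 (42.3%), against 9.55% of all 27025 genes with a window. Counted by windows, 12 of 36 (33.3%) held one, against 8.36% of 32851. Windows of a gene can overlap, and those of Aen share the same half-site, which was counted in each. Cdkn1a was the single target with 2 half-sites separated by at most 13 bases, a spacing found in 20 genes (0.074%). The 250 bases before the start are shown for 6 targets, 5 that fell in at least 1 line and Ddit4l, which rose, with the half-sites in capitals. Cdkn1a is at chr17:29090729-29090978 (plus strand), Mdm2 at chr10:117710759-117711008 (minus), Ccng1 at chr11:40755287-40755536 (minus), Gadd45a at chr6:67037408-67037657 (minus), Polk at chr13:96519188-96519437 (minus) and Ddit4l at chr3:137623422-137623671 (plus). The Polk and Ddit4l windows belong to internal starts and lie in introns of the longest GENCODE M21 gene model. The sequences run 5′ to 3′ on the strand of the gene.
Cdkn1a: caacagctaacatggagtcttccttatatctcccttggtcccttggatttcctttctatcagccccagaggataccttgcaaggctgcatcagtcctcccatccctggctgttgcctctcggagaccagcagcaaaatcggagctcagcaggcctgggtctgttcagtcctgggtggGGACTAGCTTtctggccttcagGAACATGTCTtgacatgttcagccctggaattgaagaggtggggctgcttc
Mdm2: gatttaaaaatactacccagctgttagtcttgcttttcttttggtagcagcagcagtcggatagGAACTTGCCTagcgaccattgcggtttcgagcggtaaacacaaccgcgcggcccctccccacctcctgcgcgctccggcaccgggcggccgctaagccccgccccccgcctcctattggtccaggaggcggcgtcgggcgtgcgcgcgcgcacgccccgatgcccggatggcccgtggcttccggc
Ccng1: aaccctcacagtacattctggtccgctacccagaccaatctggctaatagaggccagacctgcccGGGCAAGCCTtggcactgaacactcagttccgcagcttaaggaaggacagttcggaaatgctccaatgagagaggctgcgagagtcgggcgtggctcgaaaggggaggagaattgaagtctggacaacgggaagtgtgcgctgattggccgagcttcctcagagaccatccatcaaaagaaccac
Gadd45a: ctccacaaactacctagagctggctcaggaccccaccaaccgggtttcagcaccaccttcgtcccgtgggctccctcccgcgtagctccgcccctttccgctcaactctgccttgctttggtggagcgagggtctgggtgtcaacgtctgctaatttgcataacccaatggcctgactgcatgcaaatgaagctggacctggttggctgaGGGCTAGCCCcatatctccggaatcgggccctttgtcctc
Polk: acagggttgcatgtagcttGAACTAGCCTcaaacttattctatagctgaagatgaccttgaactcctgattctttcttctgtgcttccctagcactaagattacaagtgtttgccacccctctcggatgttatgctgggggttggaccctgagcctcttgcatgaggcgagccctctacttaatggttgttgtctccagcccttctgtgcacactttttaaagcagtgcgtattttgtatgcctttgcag
Ddit4l: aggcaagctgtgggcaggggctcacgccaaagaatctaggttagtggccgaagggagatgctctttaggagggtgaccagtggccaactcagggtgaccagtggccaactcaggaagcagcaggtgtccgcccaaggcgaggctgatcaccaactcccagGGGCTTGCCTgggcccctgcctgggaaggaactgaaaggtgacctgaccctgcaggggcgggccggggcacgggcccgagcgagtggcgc

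In Cdkn1a the half-sites begin 73 and 51 bases before the start and are 12 bases apart. Another RefSeq window of Cdkn1a, at chr17:29093519-29093818, held 0 half-sites. Only exact matches to the pattern were counted, so near matches beside them are not marked. The single half-sites of Mdm2 and Ccng1 begin 186 and 185 bases before the start, and that of Gadd45a 40 bases before it. The other targets with a half-site were Rps27l, Bax, Aen, Ei24 and Sesn1. Of the 11 targets that held a half-site, Rps27l and Sesn1 passed the test in neither line. A match is a description of the letters and no measure of binding, and p53 sites in introns can lie outside these windows.

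Mdm2 was at 85.4 and 81.4 CPM in CVP wild type, 65.8 and 62.9 in clone 2.9 and 69.0 and 65.3 in clone 2.10. In FoP it stood at 106 and 109 CPM in wild type, 70.1 and 72.3 in clone 2.4 and 66.0 and 64.8 in clone 2.5. The FoP wild type libraries were the highest of the 12, while the knock-out libraries of both lines lay in 1 range, from 62.9 to 72.3 CPM. The log2 fold change was -0.34 ± 0.05 in CVP and -0.66 ± 0.05 in FoP (edgeR adjusted p = 0.000237 and 6.39e-06).

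Ccng1 encodes cyclin G1, which recruits a phosphatase to Mdm2, and fell by 0.31 in CVP and by 0.59 in FoP on the log2 scale. Its levels were 281 and 278 CPM in CVP wild type against 212 to 245 in the knock-out libraries, and 358 and 359 against 228 to 259 in FoP. Btg2, an antiproliferative co-regulator of mRNA decay, changed by -0.39 ± 0.05 and -0.42 ± 0.05. Its duplicates were close, with 75.8 and 77.3 CPM in clone 2.9, 74.3 and 77.2 in clone 2.10 and 105 and 95.2 in CVP wild type. Plk2, a polo-like kinase of the p53 response, went from 254 and 252 CPM in FoP wild type to 117 to 146 in the knock-out libraries, and from 168 and 144 to 101 to 129.6 in CVP. Its log2 fold change was -0.44 ± 0.11 in CVP and -0.93 ± 0.11 in FoP, and the CVP call was lost without wild type library 1 (edgeR adjusted p = 0.0972). Zmat3, a zinc finger protein that binds RNA and shapes splicing, changed by -0.36 ± 0.08 and -0.73 ± 0.08. Its knock-out libraries held 101 to 117 CPM in CVP and 107 to 130.3 in FoP, below wild type at 144 and 131 and 188 and 196.

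Gadd45a, a stress sensor that binds PCNA and p21, showed the largest fall of this group in CVP. It was at 19.3 and 18.3 CPM in CVP wild type, 6.99 and 9.70 in clone 2.9 and 10.4 and 14.3 in clone 2.10. The log2 fold change was -0.86 ± 0.23 (edgeR adjusted p = 0.0104, and 0.0695 without wild type library 1). In FoP it was -0.67 ± 0.23, which missed the threshold (edgeR adjusted p = 0.0509, and 0.0116 by DESeq2), although all 4 knock-out libraries (8.66 to 13.2 CPM) lay below wild type (16.9 and 18.0). Sertad1, a regulator of CDK4, was at 21.9 to 26.7 CPM over the 8 knock-out libraries and 21.4 to 26.2 over the 4 wild type libraries. Rps27l, a ribosomal protein homologue that binds Mdm2, was at 62.6 to 70.9 and 66.0 to 72.9 CPM. In FoP its knock-out libraries, at 64.6 to 67.3 CPM, all lay below wild type at 72.9 and 69.4. Neither Sertad1 nor Rps27l passed the test in a line, and the largest of their 4 log2 fold changes was 0.13 ± 0.08, for Sertad1 in FoP.

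**Figure D2:**
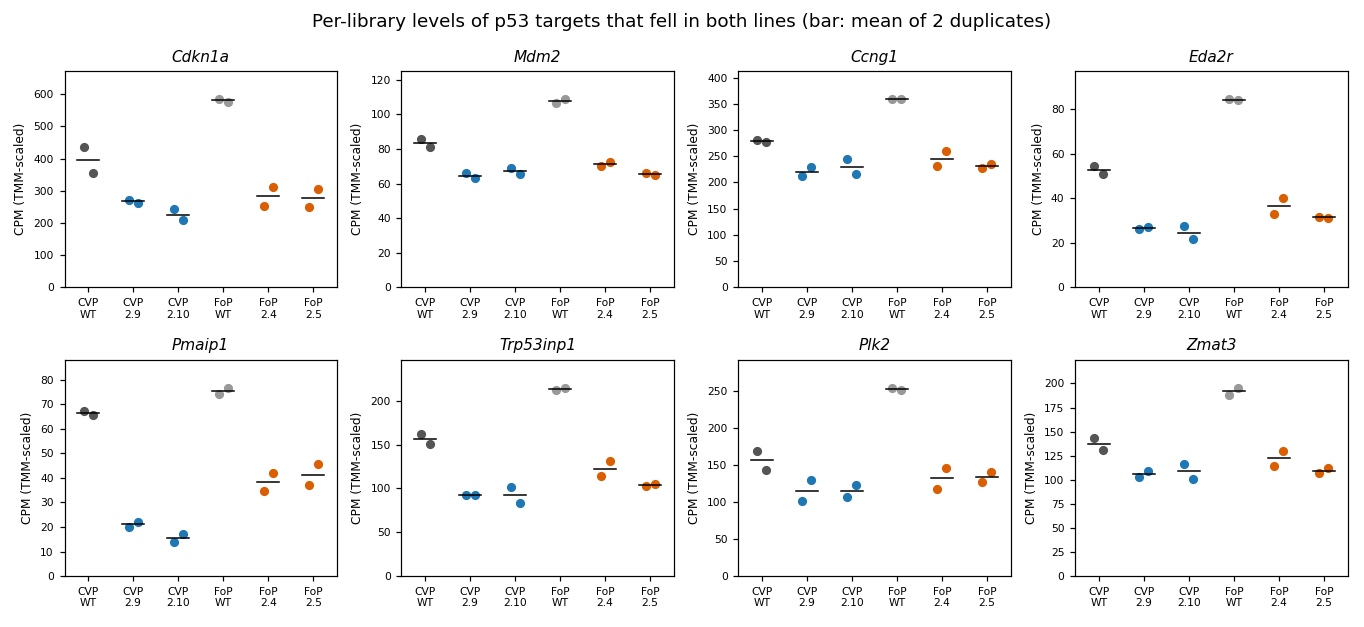
Levels (CPM scaled by the trimmed mean of M values) of 8 p53 targets that fell in both lines, 1 point per library, with a bar at the mean of the duplicates of each culture. Wild type cultures are grey and knock-out clones coloured. In every panel the FoP wild type points are the highest, such as 585 and 577 for Cdkn1a, and the knock-out points lie below the wild type of their line.

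Of the 12 cell death genes 7 fell in CVP and 8 in FoP, and 1 rose in CVP. Of all tested genes 22.9% fell in CVP and 15.3% in FoP, and 23.5% rose in CVP. Pmaip1, which encodes the BH3-only protein Noxa, had the largest fall of the group in CVP. Its level was 67.2 and 65.7 CPM in CVP wild type, 19.9 and 22.2 in clone 2.9 and 14.0 and 17.0 in clone 2.10. In FoP it was 74.3 and 76.8 in wild type, 34.8 and 42.2 in clone 2.4 and 36.9 and 45.6 in clone 2.5. The knock-out libraries of CVP lay below those of FoP with no overlap, and all lay below wild type. The log2 fold change was -1.86 ± 0.15 in CVP (edgeR adjusted p = 6.35e-06) and -0.92 ± 0.15 in FoP (edgeR adjusted p = 0.00126), so that 27.5% and 52.8% of the wild type level was left.

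The targets held 3 receptors of the tumour necrosis factor family. Eda2r, the X-linked receptor of ectodysplasin A2, had the largest fall of the group in FoP. It went from 54.5 and 51.1 CPM in CVP wild type to 26.3 and 27.2 in clone 2.9 and 27.4 and 21.7 in clone 2.10. In FoP it went from 84.7 and 84.2 to 33.1 and 40.4 in clone 2.4 and 31.8 and 31.1 in clone 2.5. Both log2 fold changes passed the test, at -1.04 ± 0.11 in CVP and -1.31 ± 0.10 in FoP (edgeR adjusted p = 1.11e-05 and 6.47e-06). Tnfrsf10b, the mouse TRAIL receptor, fell by 0.25 in CVP and by 0.45 in FoP on the log2 scale. Its CVP call was lost without wild type library 1 or 2, either clone 2.9 library or clone 2.10 library 2, at edgeR adjusted p-values of 0.0519 to 0.167. Fas fell in CVP, from 26.6 and 25.9 CPM to 14.2 to 19.6, with a log2 fold change of -0.59 ± 0.12. In FoP the Fas groups overlapped, with 20.4 and 24.2 CPM in wild type against 17.6 to 22.1 in knock-out libraries.

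Of the mitochondrial route, Apaf1, the scaffold of the apoptosome, fell in both lines. It went from 40.7 and 36.4 CPM to 20.7 to 26.4 in CVP and from 47.0 and 41.9 to 27.3 to 35.0 in FoP, at log2 fold changes of -0.71 ± 0.11 and -0.55 ± 0.11. Bax, the pore-forming effector, was at 34.5 and 35.4 CPM in CVP wild type, overlapping with 34.9 to 43.5 in CVP knock-out libraries. In FoP it went from 38.4 and 36.0 to 30.7 to 33.3, with a log2 fold change of -0.23 ± 0.08 (edgeR adjusted p = 0.0445). That call was lost when any 1 of 9 libraries was left out, both wild types of each line among them, at edgeR adjusted p-values of up to 0.277. Bbc3, which encodes the BH3-only protein Puma, passed the test in neither line. It was at 9.33 to 11.1 CPM over the wild type libraries and 9.69 to 12.6 over the knock-out libraries, at log2 fold changes of 0.17 ± 0.12 in CVP and 0.12 ± 0.12 in FoP. Of the BH3-only genes, Pmaip1 thus passed in both lines and Bbc3 in neither, and the difference between them was not tested.

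Trp53inp1, a nuclear and autophagy protein that promotes p53 phosphorylation, fell in both lines. Its levels were 162 and 151 CPM in CVP wild type, 92.9 and 92.5 in clone 2.9 and 102 and 83.9 in clone 2.10, and 212 and 215 in FoP wild type, 115 and 131 in clone 2.4 and 103 and 105 in clone 2.5. The wild type and knock-out groups did not overlap, and the log2 fold change was -0.75 ± 0.09 in CVP and -0.91 ± 0.09 in FoP. Ei24, a protein of the endoplasmic reticulum, fell by 0.29 and 0.38 on the log2 scale with an SE of 0.04 in each line. Aen, an apoptosis-enhancing nuclease, fell in FoP, where its log2 fold change was -0.39 ± 0.08. In CVP its groups overlapped, with 63.4 and 57.0 CPM in wild type against 59.4 to 63.2 in knock-out libraries. Phlda3, an inhibitor of Akt signalling, missed the threshold narrowly in CVP, where its log2 fold change was -0.14 ± 0.05 and its edgeR adjusted p was 0.0500008. Pidd1, a scaffold of the caspase-2 complex, was the death gene that rose in CVP, from 3.46 and 3.76 CPM in wild type to 5.07 and 5.09 in clone 2.9 and 4.97 and 4.31 in clone 2.10. Its log2 fold change was 0.43 ± 0.14 in CVP (edgeR adjusted p = 0.0273, and 0.0548 to 0.176 without wild type library 1 or 2 or either clone 2.9 library) and -0.37 ± 0.14 in FoP, where it missed the threshold (edgeR adjusted p = 0.0655).

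Of the 4 repair genes 3 fell in CVP and 2 in FoP, where 22.9% and 15.3% of all tested genes fell. Polk, a DNA polymerase that copies past lesions, had the largest fall of the group in both lines. It was at 61.6 and 59.2 CPM in CVP wild type, 40.3 and 46.6 in clone 2.9 and 42.1 and 40.6 in clone 2.10. In FoP it was at 79.6 and 79.0 in wild type, 53.6 and 54.4 in clone 2.4 and 42.2 and 43.6 in clone 2.5. The groups did not overlap, and clone 2.5 was the lower of the FoP clones. The log2 fold change was -0.51 ± 0.10 in CVP and -0.71 ± 0.10 in FoP (edgeR adjusted p = 0.00101 and 0.000226). Rrm2b, the p53-inducible subunit of ribonucleotide reductase, changed by -0.44 ± 0.08 in CVP and -0.25 ± 0.08 in FoP. The FoP call was lost without wild type library 1 or 2 or library 1 of clone 2.4 or 2.5, at edgeR adjusted p-values of 0.0547 to 0.244. Xpc, which recognises damage in nucleotide excision repair, fell in CVP by 0.28 on the log2 scale (edgeR adjusted p = 0.00976, and 0.123 without wild type library 1), and in FoP it stood at 52.3 and 55.1 CPM in wild type against 48.2 to 57.1 in knock-out libraries. Ddb2, its partner in the recognition of ultraviolet damage, passed the test in neither line, at 9.91 to 14.4 CPM over the wild type libraries and 9.28 to 13.9 over the knock-out libraries.

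Of the 8 genes of metabolism and other functions 5 fell and 2 rose in CVP, and 4 fell and 1 rose in FoP. Of all tested genes 22.9% fell and 23.5% rose in CVP, and 15.3% fell and 13.5% rose in FoP. The counts that rose are near these shares. Icosl, the ligand of the T cell co-stimulator ICOS, had the largest fall of all 33 in CVP although its level was low. Its counts were 325 and 365 in CVP wild type, 70 and 58 in clone 2.9 and 64 and 73 in clone 2.10. As CPM these were 4.76 and 5.07, 1.09 and 0.919 and 0.964 and 1.13, while FoP had 4.94 and 4.34 in wild type, 1.96 and 2.17 in clone 2.4 and 2.45 and 2.24 in clone 2.5. As for Pmaip1, the CVP knock-out libraries were lowest and the FoP knock-out libraries next, while the wild types of the lines overlapped. Its log2 fold change was -2.26 ± 0.16 in CVP (edgeR adjusted p = 1.14e-06) and -1.07 ± 0.16 in FoP (edgeR adjusted p = 0.000439).

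Ddit4l, also known as Redd2, an inhibitor of mTOR signalling, went the other way. It rose from 47.6 and 49.6 CPM in CVP wild type to 96.3 and 84.2 in clone 2.9 and 125 and 104 in clone 2.10. In FoP it rose from 58.4 and 55.9 to 85.1 and 76.7 in clone 2.4 and 74.5 and 81.3 in clone 2.5. All 8 knock-out libraries lay above all 4 wild type libraries, and the log2 fold change was 1.07 ± 0.12 in CVP and 0.47 ± 0.12 in FoP (edgeR adjusted p = 3.88e-05 and 0.0122). The FoP call of Ddit4l was lost without wild type library 1 or 2 (edgeR adjusted p = 0.0653 and 0.0998). Ak1, an adenylate kinase that balances adenine nucleotides, rose in CVP, from 92.0 and 85.8 CPM to 109 to 114. Its log2 fold change was 0.34 ± 0.06 in CVP and 0.11 ± 0.06 in FoP, where it did not pass.

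Sesn1 and Sesn2 encode sestrins, stress proteins that restrain mTORC1. Sesn2 changed by -0.42 ± 0.11 in CVP and -0.38 ± 0.11 in FoP, and passed in both. Its CVP call was lost without wild type library 1 (edgeR adjusted p = 0.0970), and its FoP call without wild type library 1 or 2 (0.120 and 0.0703). Sesn1 passed in neither, at 41.3 and 43.4 CPM in CVP wild type against 35.2 to 44.7, and 43.4 and 44.9 against 41.4 to 53.4 in FoP. Ephx1, the microsomal epoxide hydrolase, went from 543 and 512 CPM to 374 to 423 in CVP and from 569 and 581 to 440.4 to 472 in FoP, at 75.3% and 79.8% of wild type. Dglucy, the mitochondrial D-glutamate cyclase, fell by 0.27 in CVP and by 0.76 in FoP on the log2 scale. Dcxr, an L-xylulose reductase, fell in CVP from 102 and 109 CPM to 50.1 to 60.9, at a log2 fold change of -0.90 ± 0.10. In FoP the Dcxr groups overlapped, with 82.3 and 75.9 in wild type, 65.1 and 62.1 in clone 2.4 and 79.3 and 78.2 in clone 2.5.

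**Figure D3:**
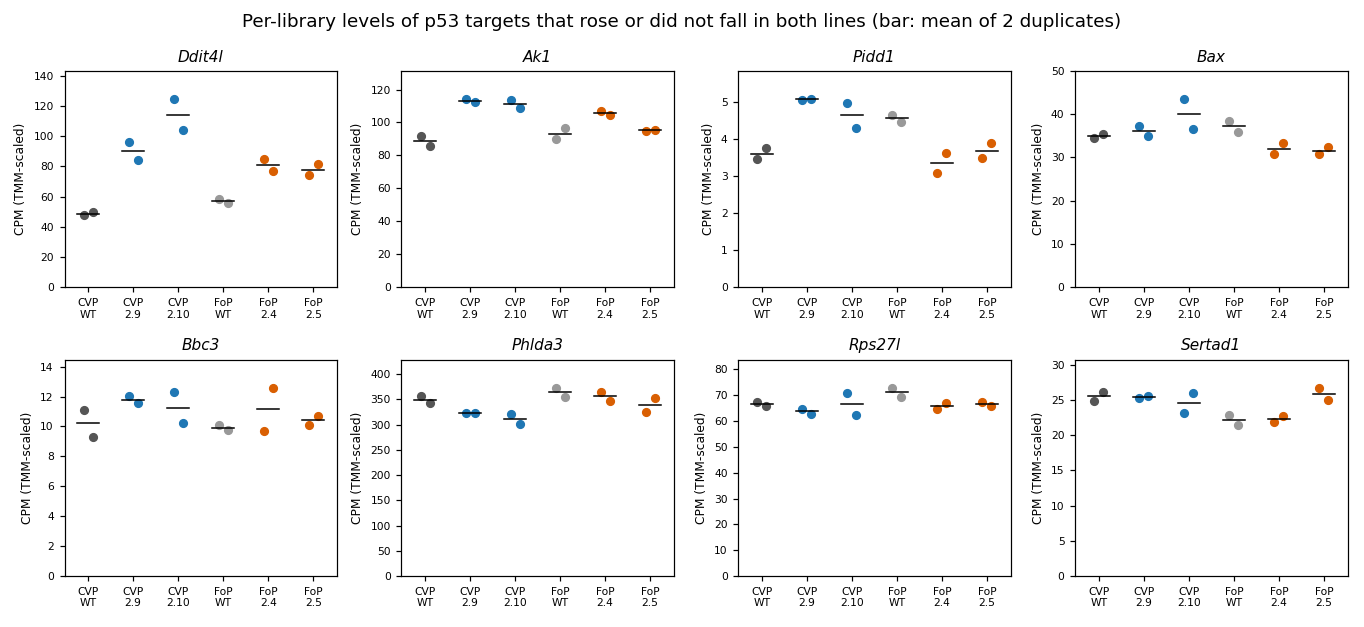
Levels (CPM scaled by the trimmed mean of M values) of 8 p53 targets that rose or did not fall in both lines, 1 point per library, with a bar at the mean of the duplicates of each culture. The knock-out points of Ddit4l, from 74.5 to 125 CPM, lie above all wild type points, while those of Rps27l, Bbc3 and Sertad1 overlap with wild type in CVP.

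Several of these genes overlap another gene in GENCODE M21, and without a stated strand setting for the counting their reads could not be told apart from those of the neighbour. They include Bax (Gm45808), Ddb2 (Acp2), Polk (Gm17622), Gadd45a (E230016M11Rik), Ei24 (Gm26787), Sesn2 (Gm12981) and Rrm2b (Gm3362 and Gm49085), and their values carry this uncertainty.

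Levels of different genes were set side by side as CPM per kb of exon. Ephx1 was the most abundant target in all 4 groups, at 271 CPM per kb in CVP wild type and 295 in FoP wild type, followed by Phlda3 at 224 and 233. Cdkn1a came next in both wild types, at 111 and 163 CPM per kb. In the knock-out groups it stood at 69.2 and 78.8 and came after Rps27l, at 80.0 and 81.0. Ccng1 was at 79.6 CPM per kb in CVP wild type and Mdm2 at 16.4. The lowest were Icosl and Pidd1, at 1.06 and 0.797 CPM per kb in CVP wild type. The abundant targets thus included genes that fell (Ephx1, Cdkn1a) and genes that passed in neither line (Phlda3, Rps27l).

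Each clone was also set against the wild type of its line. In clone 2.9, 23 targets fell and 3 rose (23.6% and 23.4% of all tested genes), and in clone 2.10, 23 fell and 2 rose (24.4% and 25.2%). In clone 2.4, 20 fell and 2 rose (17.3% and 15.1%), and in clone 2.5, 21 fell and 2 rose (18.1% and 16.3%). The clones of a line share their wild type libraries. In all 4 clones 18 targets fell (8.08% of all tested genes), and Ddit4l was the target that rose in all 4 (6.71%). Gadd45a was among the 18, at -1.17 ± 0.16, -0.60 ± 0.15, -0.46 ± 0.15 and -0.93 ± 0.16 on the log2 scale in clones 2.9, 2.10, 2.4 and 2.5. Cdkn1a stood at 67.4%, 56.8%, 48.6% and 47.8% of wild type in the same order, although the clones lay on both sides of wild type for the Foxe1 transcript.

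**Figure D4:**
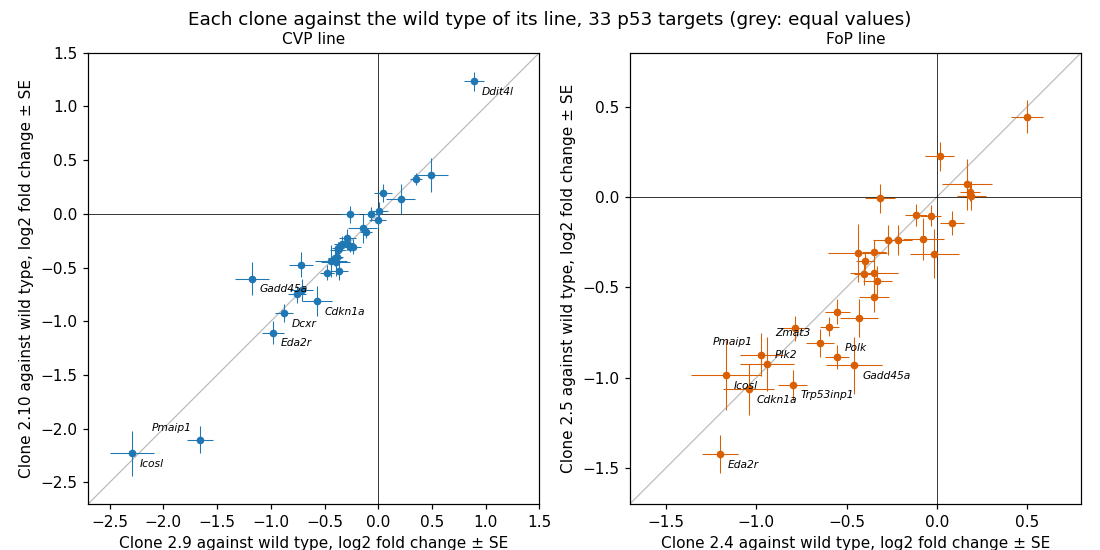
Log2 fold change against wild type of 33 p53 targets in the clones of each line, clone 2.10 over clone 2.9 (left, CVP) and clone 2.5 over clone 2.4 (right, FoP), with bars of 1 SE and a grey line of equal values. The clones of a line share their wild type libraries, and axis ranges differ between the panels. Icosl and Pmaip1 are lowest on the left and Eda2r on the right, and Ddit4l is the highest point in each panel.

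The clones of each line were also set directly against each other. Clone 2.10 differed from clone 2.9 in 1 target (5.42% of all tested genes), Ddit4l, which was higher by 0.34 ± 0.09 (SE) on the log2 scale (edgeR adjusted p = 0.0439). Gadd45a, at 0.57 ± 0.16, and Pmaip1, at -0.45 ± 0.12, missed the threshold (edgeR adjusted p = 0.0557 and 0.0663). The count between the CVP clones was 3 with DESeq2, 4 with no filter on low counts and 0 with the stricter filter. Clone 2.5 differed from clone 2.4 in 2 targets (7.26%). Polk was lower in clone 2.5, by a log2 change of -0.33 ± 0.07 (edgeR adjusted p = 0.00671), and Dcxr higher, by 0.31 ± 0.08 (edgeR adjusted p = 0.0354). Each of the 3 calls was lost in at least 1 fit that left out a library, in which the counts were 0 to 2 in CVP and 0 to 5 in FoP.

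Several p53 targets were higher in wild type FoP than in wild type CVP libraries. Of the 33 targets 10 were higher and 0 lower, where 3.77% of all tested genes were higher and 2.91% lower, and 15 targets in either direction had an unadjusted p under 0.05 in edgeR. The Wald test of DESeq2 called 11 higher and 1 lower. The 10 were 6 arrest and feedback genes (Cdkn1a, Mdm2, Ccng1, Btg2, Plk2 and Zmat3), 3 death genes (Eda2r, Aen and Trp53inp1) and Dglucy. The log2 difference was largest for Plk2, at 0.70 ± 0.13 (edgeR adjusted p = 0.0106), and Eda2r, at 0.68 ± 0.12 (edgeR adjusted p = 0.00957). For Mdm2 it was 0.37 ± 0.06 (edgeR adjusted p = 0.0072) and for Cdkn1a 0.55 ± 0.15 (edgeR adjusted p = 0.0449). Each wild type is 1 pair of duplicate libraries. With the duplicates summed, 0 of the 33 passed (10 at an unadjusted p under 0.05 in edgeR), and voom of limma with the culture as a random block gave 6. Without a single wild type library the count was 3 or fewer, namely 3 and 0 without the CVP libraries 1 and 2, and 1 without either FoP library.

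The size of the knock-out effect differed between the lines for 10 of the 33 targets, against 15.8% of all tested genes. These tests use the same wild type libraries as the comparison of the wild types. The FoP effect lay below the CVP effect for 7 (8.49% of all tested genes) and above it for 3 (7.28%). Among the 7, Mdm2 and Zmat3 fell more in FoP, with differences of -0.31 ± 0.08 and -0.37 ± 0.11 on the log2 scale, as did Dglucy at -0.49 ± 0.08 (edgeR adjusted p = 0.00307). Aen and Bax fell in FoP and did not pass in CVP, with differences of -0.41 ± 0.11 and -0.35 ± 0.11 (edgeR adjusted p = 0.0244 and 0.04997). Pidd1 rose in CVP and had a negative value in FoP (difference -0.80 ± 0.20), and Ddit4l rose more in CVP (-0.60 ± 0.17).

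The 3 targets with the larger fall in CVP were Icosl, Pmaip1 and Dcxr. Their differences were 1.19 ± 0.24 for Icosl, 0.94 ± 0.22 for Pmaip1 and 0.75 ± 0.15 for Dcxr (edgeR adjusted p = 0.00702, 0.0177 and 0.00738). For Cdkn1a the difference of -0.37 ± 0.18 did not pass (95% interval -0.71 to -0.02), nor did that of Plk2 at -0.49 ± 0.16 (-0.80 to -0.19). The count of differing targets was 5 with voom and the culture as a block, 0 with summed duplicates (12 at an unadjusted p under 0.05) and 3 to 5 without any 1 of the wild type libraries: 5 and 4 without CVP libraries 1 and 2, and 3 without either FoP library.

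Between the knock-out groups, a comparison added after the other results were seen, 11 targets were higher and 4 lower in FoP than in CVP (12.1% and 12.3% of all tested genes). Pmaip1 and Icosl differed most, at 1.13 ± 0.13 and 1.10 ± 0.14 on the log2 scale. Of the 10 targets that were higher in FoP wild type, Btg2, Eda2r and Trp53inp1 were also higher in FoP knock-out libraries, at 0.29 ± 0.04, 0.41 ± 0.09 and 0.29 ± 0.08. The other 7 did not pass, among them Mdm2 at 0.05 ± 0.05 (95% interval -0.03 to 0.14) and Cdkn1a at 0.19 ± 0.10 (-0.01 to 0.39).

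Of 22 listed genes that act on p53, 6 rose and 2 fell in CVP, where 23.5% of all tested genes rose and 22.9% fell. In FoP 3 rose and 5 fell, against 13.5% and 15.3% of all tested genes. The medians were 0.03 and -0.0024 on the log2 scale, and the counts that rose are near the shares over all genes. Cdkn2a, whose locus encodes the CDK inhibitor p16 and the Mdm2 inhibitor p19Arf, rose most. It went from 11.0 ± 1.23 CPM (SD, n = 2) to 44.5 ± 3.30 (n = 4) in CVP and from 9.20 ± 0.99 to 41.6 ± 3.37 in FoP, at log2 fold changes of 2.02 ± 0.11 and 2.18 ± 0.11. Gene counts do not tell its 2 products apart. Trp53 itself rose in CVP by 0.31 ± 0.08 (edgeR adjusted p = 0.00549) and was at 119 ± 3.08 CPM in FoP wild type and 119.6 ± 5.56 in FoP knock-out libraries. Usp10, a deubiquitinase that stabilises p53, fell in both lines, by 0.36 and 0.21 on the log2 scale. Trp63, which encodes p63, fell in CVP by 0.34 and rose in FoP by 0.41 on the log2 scale. Mdm4, the partner of Mdm2, passed in neither line, at 0.14 ± 0.15 and -0.28 ± 0.15.

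A further 38 known p53 targets outside the 33 were listed. In CVP 18 fell and 11 rose (median -0.22), where 22.9% of all tested genes fell and 23.5% rose. In FoP 12 fell and 7 rose (median -0.12), against 15.3% and 13.5%. The difference between this list and the 33 was not tested. Gdf15, a stress-induced cytokine, went from 7.37 ± 1.45 to 2.18 ± 0.363 CPM in CVP and from 17.9 ± 1.05 to 2.25 ± 1.06 in FoP, at log2 fold changes of -1.76 ± 0.32 and -2.99 ± 0.32. Polh, a lesion-bypass polymerase like Polk, changed by -0.66 ± 0.05 and -0.53 ± 0.05. Those that rose in both lines included Tlr3, a sensor of double-stranded RNA, at 1.02 ± 0.09 and 0.47 ± 0.09, and Cdip1, a pro-apoptotic protein, at 0.58 ± 0.09 and 0.42 ± 0.09. Spata18, a regulator of mitochondrial quality, rose by 3.05 ± 0.35 and 1.75 ± 0.33 from a low level of 0.264 ± 0.0201 CPM in CVP wild type.

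Most of the cell cycle genes that p53 is known to repress through p21 and the DREAM complex were lower in the knock-out libraries. Of 12 such genes 8 fell and 0 rose in CVP (median -0.75), and 11 fell and 0 rose in FoP (median -1.98), and none was higher at an unadjusted p under 0.05 in edgeR. Of all tested genes 22.9% fell and 23.5% rose in CVP, and 15.3% fell and 13.5% rose in FoP. Clone by clone, 1 of the 12 rose in clone 2.9, and 1 each was higher at an unadjusted p under 0.05 in clones 2.10 and 2.5 without passing. Ccnb1, the mitotic cyclin B1, went from 11.9 ± 0.0166 to 6.90 ± 1.52 CPM in CVP and from 25.0 ± 4.08 to 6.36 ± 0.984 in FoP. The proliferation marker Mki67 fell in FoP, from 104 ± 1.37 to 26.7 ± 3.71 CPM, and did not pass in CVP (edgeR adjusted p = 0.194). Between the wild types 6 of the 12 were higher in FoP (3.77% of all tested genes), Mki67 among them at 1.05 ± 0.26. The 10 p53 targets and these 6 cell cycle genes thus shared a direction between the wild types, and the part of proliferation in the p53 target levels was not tested.

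Some p53 targets, such as Sesn2 and Pmaip1, are also raised by the stress factor ATF4. Of 8 listed targets of ATF4 and CHOP 3 fell in CVP and 4 in FoP, and none rose, also at an unadjusted p under 0.05 in edgeR. Of all tested genes 22.9% fell in CVP and 15.3% in FoP. Ddit3, which encodes CHOP, changed by -1.14 ± 0.23 in CVP and -0.92 ± 0.23 in FoP, and Psat1, a serine synthesis enzyme, by -1.50 ± 0.26 and -1.77 ± 0.26. Clone by clone, 3 of the 8 fell in clone 2.9 (median -0.25) and 6 in clone 2.10 (median -0.98), against 23.6% and 24.4% of all tested genes. In clone 2.4 there were 5 (median -0.75) and in clone 2.5 there were 4 (median -0.74), against 17.3% and 18.1%. By line, all 8 had negative log2 fold changes in CVP and in FoP, as had Sesn2 and Pmaip1. The part of these 8 genes in the falls of Sesn2 and Pmaip1 was not tested.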

How the data were processed

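The deposited table holds raw counts of reads per gene for 12 libraries, made by the authors with STAR and featureCounts, per the submitters' processing notes. These notes name the hg38 genome, yet the deposited counts carry mouse gene symbols. Versions and the strand setting are not given in the sources used here. The 33 genes were taken by symbol, and the genes and all lists were chosen with earlier results of these data known.

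Genes were filtered with filterByExpr over the 4 groups (17076 tested). After TMM scaling, the robust quasi-likelihood test of edgeR 4.0.16 (R 4.3.3) was run with each library as a sample, 8 residual degrees of freedom and Benjamini-Hochberg adjustment over all tested genes. Clones were compared in a fit of 6 cultures. The comparison of the knock-out groups was added after the other results were seen, and no alternatives were run for it. The SE was approximated as the log2 fold change divided by the square root of F, and 95% intervals are 1.96 SE to each side. CPM used TMM-scaled library sizes, so 1 CPM is about 59.3 to 73.6 counts before scaling. Exon lengths came from GENCODE M21 and promoters from RefSeq (GRCm38.p6).

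Full values are given for the called genes with the largest change of each function group and for genes whose lines or clones differed by a test, and the others by values, ranges and counts. Duplicates of a culture differed by more than sampling noise (chi-square per gene 7.88 to 38.6). The alternatives tried were scaling by DESeq2 size factors, dropping the filter or raising it to 1 CPM in 4 libraries, DESeq2 1.42.0, voom of limma 3.58.1 with the culture as a random block, summed duplicates, a replicate block, counts divided by 2, 1 line per fit, and each library or clone left out.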

Additional observations from a re-analysis of the deposited data

Results flagged for a closer look

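The knock-out effect differed between the lines for 10 of 33 p53 targets by the interaction test of edgeR at an adjusted p under 0.05. Of all tested genes 15.8% differed. The count of targets was 0 with summed duplicates and 5 with voom and the culture as a random block. As FoP effect minus CVP effect on the log2 scale, the differences were -0.31 for Mdm2, -0.37 for Zmat3, -0.35 for Bax, -0.80 for Pidd1, -0.41 for Aen, -0.49 for Dglucy and -0.60 for Ddit4l. They were 0.94 for Pmaip1, 0.75 for Dcxr and 1.19 for Icosl.

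The knock-out libraries of each line were searched, gene by gene, for a library that stood apart from the other 3. Of 66 such groups 2 held one, where chance alone marks about 1 in 20. Both were duplicate 2 of clone 2.10. It held 4.31 CPM of Pidd1, where the other CVP knock-out libraries held 4.97 to 5.09, a gap of 0.849 of the group's range. It held 301 CPM of Phlda3, where the others held 321 to 323, a gap of 0.905 of the range.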

How the results depend on the processing

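Every p53 target was refitted under 25 alternatives per line. Of 46 calls in the 2 lines 25 held under all of them, 16 in CVP and 9 in FoP. The count of called targets stayed within 1.5 times that reported in CVP (18 to 26) and, apart from summed duplicates (9), in FoP (17 to 23). Summed duplicates gave 0 in the difference between lines and 0 between the wild types (12 and 10 at an unadjusted p under 0.05 in edgeR), and rest on 2 residual degrees of freedom. Voom with the culture as a random block (correlation 0.255) gave 5 and 6. Between clones, no filter gave 4 in CVP and 5 in FoP, the stricter filter 0 in CVP and DESeq2 3 in CVP. With 1 library left out, the counts were 19 to 26 in CVP, 17 to 22 in FoP, 23 to 26 in the mean, 3 to 11 in the difference, 0 to 12 between the wild types, 0 to 2 between CVP clones and 0 to 5 between FoP clones. Where a library left out leaves 1 in its group, that library is assumed to vary like the others. The direction turned only for uncalled values near 0. With 1 library left out, Sertad1 in CVP ranged from -0.0672 to 0.0061, Aen in CVP from -0.0564 to 0.0975, Ddb2 in CVP from -0.295 to 0.0337 and Xpc in FoP from -0.0645 to 0.0164. Without clone 2.5, Xpc in FoP was at 0.0839, and without clone 2.4, Dcxr in FoP was at 9.82e-05. The cause of these changes was not tested.

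The duplicate numbers did not pair the libraries in most pairs of cultures. Over 15 pairs the correlation of same-numbered deviations was -0.16 to 0.36 (median -0.05), above 0.1 in 3. With the number as a replicate block the counts were 25 in CVP, 20 in FoP, 26 in the mean, 9 in the difference, 9 between the wild types, 3 between CVP clones (Pmaip1, Gadd45a and Ddit4l) and 2 between FoP clones.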
